A study of Mus musculus with 9 samples.

Results

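The comparison described here is between the testes of mice carrying 1 disrupted copy of Pfn3 and those of their wild-type counterparts. It covers 6 of the 9 samples of the series, 3 Pfn3+/- (Het) and 3 Pfn3+/+ (WT), and the 3 Pfn3-/- (KO) samples are given beside them only where a value helps to place a Het animal. All mice were C57BL/6 males whose Pfn3 had been edited with CRISPR/Cas9 by a pair of guide RNAs aimed at its only exon, and the WT animals carry the unedited gene. Several lines with different frameshift deletions were made in that study, and the line of the sampled animals is not given in the sources used here. They were sexually mature males per the methods, and the labels give no age for single animals. Whole testis without its capsule was used, and libraries were made from the 3′ ends of polyadenylated RNA (QuantSeq), so a gene's value follows the number of its transcripts and not their length. The deposited values are normalized counts, which are reads divided by 1 size factor per sample. Of the 38674 genes in the table, the comparison takes the 14216 whose normalized count reached 10 in 3 or more of the 6 samples, and the other 24458 did not pass. The samples are treated as separate animals, which the labels do not state, and p-values measure only the spread between them.

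Profilins bind monomeric actin and feed it to growing filaments, and PFN3 is a profilin made in the testis during spermiogenesis. In this phase round spermatids build the acrosome from Golgi vesicles, shape the nucleus with a microtubule skirt called the manchette, exchange histones for transition proteins and then protamines, and grow a tail. Spermatids stay joined by cytoplasmic bridges and can share gene products, so a haploid spermatid of a heterozygous male need not lack the product of the intact allele. A heterozygote therefore addresses what 1 remaining copy gives, in a tissue in which germ cells of many stages are mixed.

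Pfn3 (ENSMUSG00000044444) lies on chromosome 13 from 55414688 to 55415232 on the minus strand of GRCm38. The 250 bases just before its annotated start (chr13:55415233-55415482, RefSeq sequence, GRCm38.p6) are shown because the edit leaves them in place. Capitals mark TGACG or its reverse complement CGTCA, the core of the site bound by CREM and related factors of spermatids.

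Pfn3 upstream: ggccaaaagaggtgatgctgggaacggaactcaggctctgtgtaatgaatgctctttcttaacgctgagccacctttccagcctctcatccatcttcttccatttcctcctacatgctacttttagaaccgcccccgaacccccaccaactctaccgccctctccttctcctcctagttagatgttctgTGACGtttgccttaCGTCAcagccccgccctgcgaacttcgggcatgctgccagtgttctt

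Pfn3 holds 2 such matches, 1 on each strand, and they do not overlap. Of 32851 promoter windows of this length given by RefSeq, 17.8% hold at least 1 match, and of those of genes tested 25%. For genes with an unadjusted limma p under 0.05 the share was 21.5% of 195 windows for those higher in Het. It was 28.5% of 274 windows for those lower. These are shares of windows and not of genes, since a gene can have several windows or none. A match describes letters and not a bound site.

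The Pfn3 level was 592, 383 and 373 normalized counts among WT animals and 136, 339 and 326 among Het animals. All Het animals lay below all WT animals, but Het 2 and Het 3 came close to WT 2 and WT 3, and Het 1 stood well below them. The means were 449 ± 124 in WT and 267 ± 114 in Het (SD, n = 3), and the log2 fold change on log2(normalized count + 1) was -0.83 with a standard error of 0.42 (limma, unadjusted p = 0.0937, adjusted p = 0.779). Without Het 1 it was -0.40. The KO animals had 74.7, 215 and 279, so transcript of the edited gene was counted in animals with no intact copy. The reads come from near the 3′ end, where a transcript of the edited allele could also be counted, so the Pfn3 level does not check the genotype labels. Slc34a1, a phosphate transporter on the opposite strand that overlaps Pfn3, had at most 9.45 normalized counts in any of the 6 animals.

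The other profilins gave no difference past the test. Pfn2 had 135, 537 and 549 in WT and 596, 524 and 501 in Het. Pfn4, another testis profilin, had 105, 182 and 226 in WT and 173, 139.7 and 151 in Het. Pfn1, the profilin of most cells, was scarce, with 2.48, 57.9 and 49.2 in WT and 35.9, 54.9 and 2.12 in Het. For each of these genes the animals of the genotypes overlapped.

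Before the other genes are described, the libraries need a word. Reads counted on genes ranged from 3375546 to 4232041, and 3 reads, taken as the limit of detection per library, were worth 2.79 to 3.71 normalized counts. In 780 genes WT 1 lay at least 2 log2 units below each of the other 5 animals, and in 365 genes Het 1 did so, against 28 to 112 genes for the other 4. The median absolute log2 difference was 0.616 to 0.754 between WT 1 and any other animal, but 0.2 between WT 3 and Het 2, the closest pair, which crosses the genotypes. Among the WT animals 1572 genes (11.1%) spanned over 3 log2 units, and among the Het animals 1354 (9.52%), with 680 genes in both sets. The number of genes called, the list medians and the medians of the lowest and highest abundance class are therefore also given without WT 1 or without Het 1 where that moved them by over 1.5 times.

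**Figure D1:**
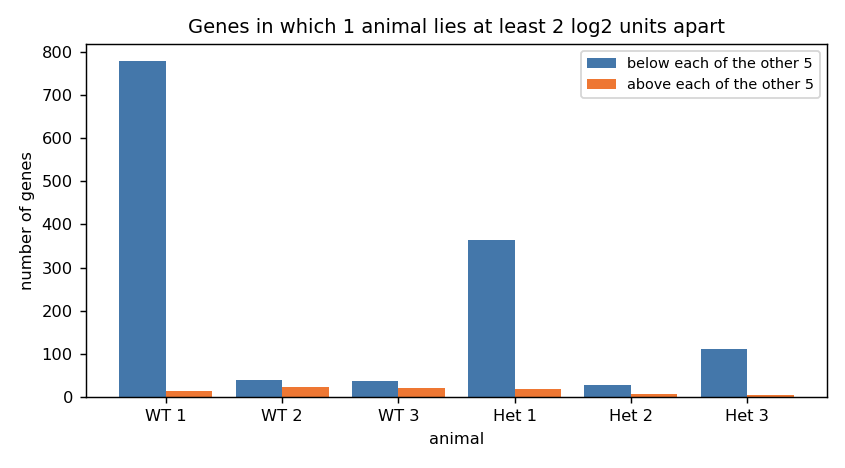
Number of genes (vertical axis) in which 1 animal (horizontal axis) lay at least 2 log2 units below or above each of the other 5 animals. WT 1, with 780 genes below, and Het 1, with 365, stand out, and few genes lie above in any animal.

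The study applied its cutoffs, an adjusted p under 0.05 and an absolute log2 fold change over 1.5, with DESeq2. With the same cutoffs limma called 0 of 14216 genes (0.0%). Its unadjusted p was under 0.05 for 475 genes (3.34%), where 5% of the genes tested would be 711. Of these, 207 (1.46%) were higher and 268 (1.89%) lower in Het. Without WT 1 the calls were 0 with 375 genes under that p, without Het 1 they were 0 with 182, and without both they were 0 with 344. edgeR on the recovered reads called 0, with 410 genes at an unadjusted p under 0.05 and a lowest adjusted p of 0.075. The Wald test of DESeq2 on the same reads called 31 of 14111 genes (0.22%), 24 lower and 7 higher in Het. DESeq2 was the study's tool, in an earlier version. Het animals lay wholly above WT animals in 961 genes (6.76%) and wholly below in 923 (6.49%). Genes named below by size of change were chosen from these and for an unadjusted limma p under 0.05. Lack of overlap in them, among them Wt1, Igf2bp1 and Dusp6, was a condition of the choice.

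The gene nearest to the cutoff was Qrich1, which encodes a transcriptional regulator of the unfolded protein response. Its level was 631, 655 and 507 normalized counts in WT and 57.6, 54.9 and 69.8 in Het. Every Het animal had under 70 and every WT animal over 500, with little spread in either genotype. The mean was 9.83-fold lower in Het, 60.8 ± 7.94 against 598 ± 79.6 (SD, n = 3), and the log2 fold change was -3.27 with a standard error of 0.21. The adjusted p was 0.0502 by limma, 0.075 by edgeR and 6.48e-31 by DESeq2, so the call turns on the test. Leaving out 1 animal at a time kept the log2 fold change between -3.39 and -3.20, with limma adjusted p from 0.0593 to 0.220. The KO animals had 85.0, 68.7 and 90.3, near the Het level. Qrich1 (ENSMUSG00000006673) lies on chromosome 9 from 108516806 to 108560163, on another chromosome than Pfn3. It is one of the genes the study named from these libraries, so its direction here is not independent evidence. The study also reported Qrich1 as lower in KO by qRT-PCR on WT, Het and KO testis RNA.

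A small set of genes was not detected, or nearly so, in any Het animal. Ass1 (argininosuccinate synthase of the urea cycle and arginine synthesis) had 118, 67.5 and 52.1 normalized counts in WT and 0 in all 3 Het animals. Taf1c, a subunit of the selectivity factor of RNA polymerase I, had 33.4, 145 and 114 in WT and 0 in every Het animal. Hmgxb3, an HMG-box protein gene, had 50.8, 72.4 and 69.5 in WT and again 0 in every Het animal. Against a floor of 3 reads per library, Ass1 was at least 27.0-fold lower, Taf1c at least 33.2-fold lower and Hmgxb3 at least 21.9-fold lower in Het. These bounds use the WT mean and leave out the spread among WT animals. Their limma adjusted p was 0.096 for Ass1 and Hmgxb3 and 0.176 for Taf1c. The KO animals did not extend this pattern. Ass1 had 42.1, 71.6 and 0 in KO, Hmgxb3 had 0, 82.2 and 82.2, and Taf1c had 152, 0 and 136. Single KO animals were thus at 0 and the others at the WT level.

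Gm2174, an X-linked gene, had 13.6, 210.3 and 196 in WT and 0 in all Het and all KO animals, at least 47.7-fold lower in Het (limma adjusted p = 0.779). The low value was that of WT 1, which lay far nearer to the floor than the WT mean that the bound uses. Gm17435, a long noncoding RNA gene, had 262, 72.4 and 187 in WT and 0.945, 1.86 and 0 in Het, at least 59.3-fold lower (limma adjusted p = 0.147), while the KO animals had 215, 422 and 366. Gm17435 overlaps the Mediator subunit gene Med26 on the opposite strand, and whether the counting used strand is not given. Med26 had 103, 488 and 384 in WT and 683, 569 and 680.5 in Het, and the values of both genes added came to 365, 560.5 and 572 in WT and 684, 571 and 680.5 in Het. Reads at this locus thus lay with Med26 in Het and with both genes in WT, and assignment between them was not tested. Hmgxb3 and Taf1c also overlap genes on the opposite strand, Csf1r and Dnaaf1. Csf1r had 54.5, 114 and 93.7 in WT and 97.3, 113 and 121 in Het.

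Igf2bp1, an mRNA-binding protein of fetal and germ cells, had 70.6, 67.5 and 52.1 in WT and 2.83, 2.79 and 5.29 in Het. The genotypes were far apart and each was tight, with a mean 17.4-fold lower in Het (log2 fold change -3.83, standard error 0.38, limma adjusted p = 0.147, DESeq2 adjusted p = 8.19e-08). The KO animals had 65.3, 33.9 and 59.9, nearer to WT. Across the 6 animals only 5 genes had at most 3 reads in every Het animal and over 3 in every WT animal. These genes and Igf2bp1 passed the filter only through the WT animals.

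**Figure D2:**
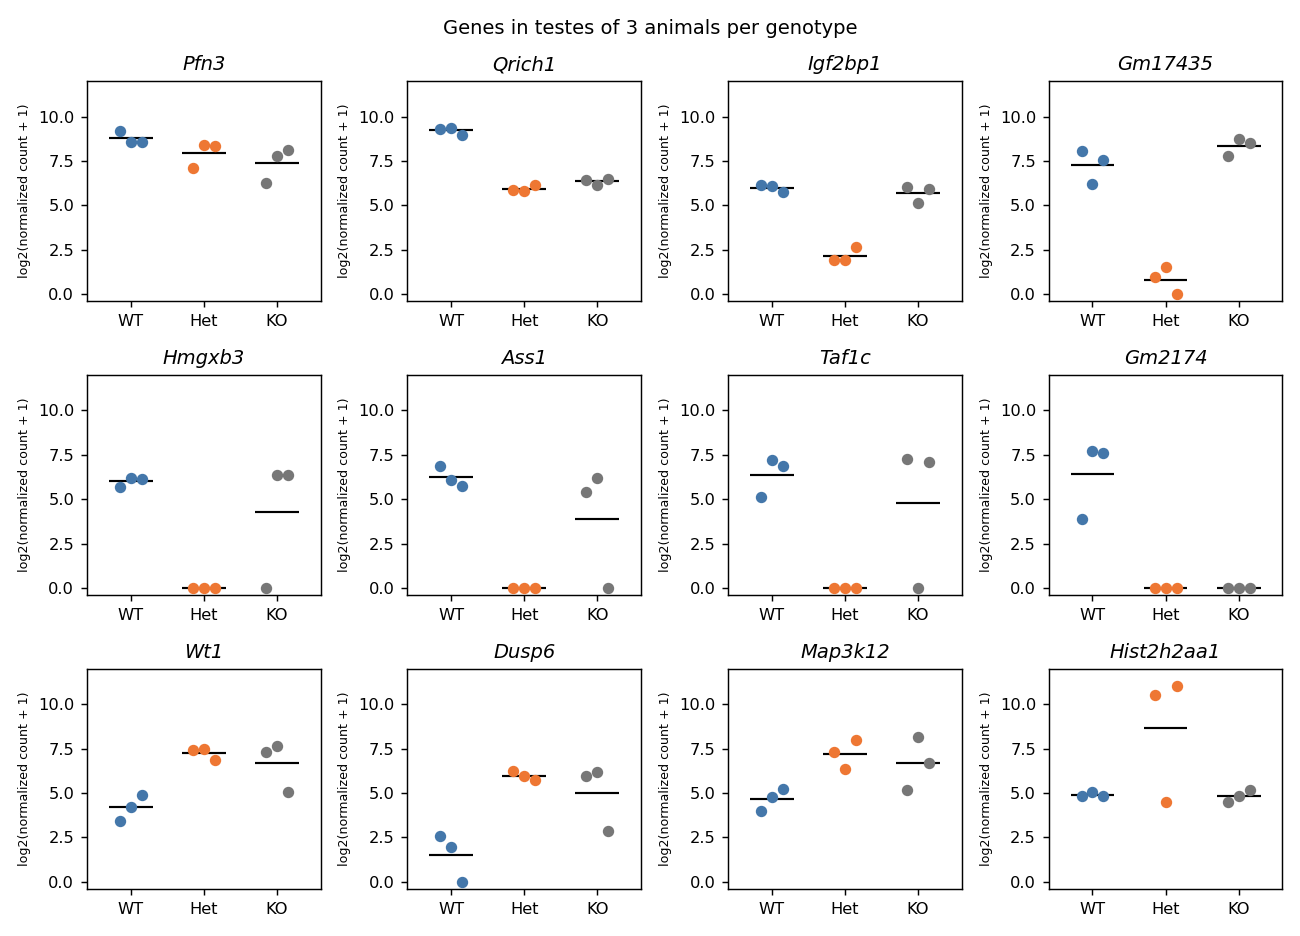
Normalized counts on a log2(value + 1) scale (vertical axis) of 12 genes in each WT, Het and KO animal (1 point per animal, lines at the mean of the log2 values). Qrich1 and Igf2bp1 separate Het from WT with little spread, Ass1, Hmgxb3, Taf1c and Gm2174 are at 0 in all Het animals, and Hist2h2aa1 is high in 2 of the 3 Het animals.

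DESeq2 also called Cenpm and Cep350 lower, which are named here after their values were seen. Cenpm, a centromere protein, had 57.0, 45.3 and 43.4 in WT and 6.61, 10.2 and 9.52 in Het (limma adjusted p = 0.544). Cep350, a centrosomal protein, had 1161, 671 and 830.4 in WT and 318, 285 and 283 in Het (limma adjusted p = 0.779). In both genes the genotypes did not overlap.

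Prpf38a, a splicing factor of the spliceosome's activation step, had 17.3, 136 and 117 in WT and 4.72, 5.59 and 2.12 in Het. All Het animals lay below all WT animals, as the filter and the rule for its choice required, with WT 1 nearest to them. In other genes large differences were carried by 1 or 2 animals. Exosc5, a subunit of the RNA exosome that degrades RNA from its 3′ end, had 90.4, 1547 and 1151 in WT and 37.8, 112 and 68.8 in Het, so WT 1 lay within the Het range. Of the 31 genes that DESeq2 called, 7 had overlapping genotypes in this way. Ascc1 had 373, 234 and 225 in WT and 4.72, 198 and 8.47 in Het, with Het 2 near the WT level. The chaperone gene Dnajb1 repeated this split, with 703, 729 and 629.5 in WT and 17.0, 626 and 18.0 in Het. In Ascc1, Dnajb1 and Fxyd2 it was Het 1 and Het 3 that were low. Without Het 2, limma called 3 genes, Dnajb1, Fam187b and Hist2h2aa1, each of which had Het 2 at the WT level.

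Fewer genes stood out as higher in Het. Wt1, the transcription factor that Sertoli cells need to keep their identity, had 9.90, 17.4 and 29.0 in WT and 168, 179.7 and 116 in Het. The genotypes did not overlap, and the mean was 8.26-fold higher in Het (log2 fold change 3.07, standard error 0.42, limma adjusted p = 0.544, DESeq2 adjusted p = 1.63e-06). In bulk testis more cells of a type and more RNA per cell cannot be told apart. Wt1 was not followed by the Sertoli cell markers as a group: of 14 tested, 6 were higher and 8 lower, with a median log2 fold change of -0.17 (-0.06 without WT 1, 0.04 without Het 1, -0.02 when scaled to reads per library). Sox9, another Sertoli factor, had 144, 114 and 166 in WT and 314, 173 and 240.2 in Het, with no overlap and an unadjusted limma p of 0.0406. The summed level of the Sertoli list was 5788, 5191 and 5550 in WT and 4384, 6087 and 4863 in Het.

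Dusp6, a phosphatase that switches off ERK kinases, had 4.95, 2.89 and 0 in WT and 73.7, 60.5 and 51.9 in Het (log2 fold change 4.45, standard error 0.73, limma adjusted p = 0.779, DESeq2 adjusted p = 6.09e-06). Map3k12, a kinase upstream of JNK, had 14.9, 26 and 35.7 in WT and 158, 81.0 and 252 in Het. In both, all Het animals lay above all WT animals, as the rule for naming genes by size of change required. Plat, the tissue plasminogen activator, was at 0 in every WT animal and had 25.5, 12.1 and 21.2 in Het, at least 6.18-fold higher. Abca3, a lipid transporter, was at least 6.44-fold higher, and Lrrc4b, a synaptic adhesion protein, at least 5.78-fold higher, both from 0 in every WT animal. These are the 3 genes with at most 3 reads in every WT animal and over 3 in every Het animal. Hist2h2aa1, a replication-type histone H2A gene that has a near-identical copy, had 27.2, 31.8 and 28 in WT and 1490, 21.4 and 2091 in Het, so its reads are uncertain and 1 Het animal showed no difference. Mtf1, the metal-responsive transcription factor, had 37.1, 89.7 and 768 in WT and 1171, 961 and 939.7 in Het, and overlaps 1110065P20Rik on the opposite strand, which had 676, 745 and 636 in WT and 32.1, 561 and 188 in Het.

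The 13 genes the study named from its RNA-seq were chosen on these samples. Of 10 that passed the filter, 7 were lower and 3 higher in Het, with a median log2 fold change of -1.84. Of these, 2, Qrich1 and Dpm2, had an unadjusted limma p under 0.05. Most of the 10 were given by the study as lower in KO than in these same WT animals. B3gnt9, Mul1 and Hhatl, given as higher in KO, did not pass the filter. The sign of the median was therefore largely set by the choice of genes. Dpm2, a subunit of dolichol-phosphate mannose synthase, had 234, 158 and 160.3 in WT and 125, 10.2 and 8.47 in Het, with Het 1 near WT and the other two at the level of KO. In Exosc1, another exosome gene, the Het animals had 5.67, 134 and 77.3, beside 161, 156 and 148 in WT. In Slc25a36, a mitochondrial nucleotide carrier gene, they had 12.3, 58.7 and 5.29, beside 54.5, 56.0 and 61.8 in WT. Srsf9, a splicing factor of the SR family, had 262, 318 and 285 in WT and 425, 3.72 and 358 in Het, and here only Het 2 was as low as the KO animals, which had 2.58, 1.93 and 0.894. Trim27, a ubiquitin ligase gene, was the largest difference of the list in the other direction, with 47, 25.1 and 30.9 in WT and 64.2, 1014 and 102 in Het, and Het 2 was at the level of the KO animals (825, 764 and 879). Het 2 thus lay near WT in Exosc1 and Slc25a36 and near KO in Dpm2, Srsf9 and Trim27. Without Het 1 the list's median was -1.24, and by library scaling it was -1.70.

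Gene lists by stage and structure are described by counts and medians, which have no test here. Their direction depends on the scaling: the median of all genes was 0.007 with the authors' size factors, 0.032 with TMM factors and 0.157 when values were scaled to reads per library. A list's median is therefore read relative to the median of all genes under the same scaling. A value under 0.157 by library scaling thus lies below that of all genes. None of the 29 lists held a gene past the limma cutoffs. Counts within a list are read beside all genes tested, of which 49.5% were lower in Het, and 1.89% were lower and 1.46% higher at an unadjusted p under 0.05. The share lower rose with abundance. It was 61.7% for genes with a mean normalized count from 300 to 1000, 73.2% from 1000 to 3000 and 73.6% over 3000. Lists were not compared with genes of like abundance, so a high share lower in a list of abundant genes is not particular to that list.

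Of 11 nuclear proteins of elongating spermatids tested, 9 were lower in Het, 4 of them with an unadjusted p under 0.05, and the median log2 fold change was -0.35 (-0.20 by library scaling). Their summed level was 252382, 267631 and 252616 in WT and 189989, 230815 and 228366 in Het, with no overlap. Prm2, protamine 2, which compacts sperm DNA, had 54683, 41373 and 39826 in WT and 21430.2, 38569 and 26112 in Het. Tnp2, a transition protein, had 32383, 26072 and 27139 in WT and 15659, 23484 and 21285 in Het. Both kept the genotypes apart, and the log2 fold changes were -0.69 (standard error 0.25) for Prm2 and -0.52 (0.18) for Tnp2, each at a limma adjusted p of 0.779. Tssk6, a spermatid kinase, had 4525, 3334 and 5138 in WT and 2393, 2660.4 and 2978 in Het. Chd5, a chromatin remodeler, had 721, 622 and 809 in WT and 124, 642 and 177 in Het, with Het 2 at the WT level. Prm1 and Tnp1, the more abundant partners of these proteins, had a log2 fold change of -0.09 and -0.12. Without Het 1 the list's median was -0.16 and 1 of its genes was under that p, and without WT 1 and Het 1 it was -0.21 and 0 genes were.

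In the fibrous sheath and outer dense fibres, the sheaths of the sperm tail, 19 of 23 genes tested were lower in Het and the median was -0.48. By library scaling it was -0.32, with 18 lower. Rsph1 and Calr3 had an unadjusted limma p under 0.05, and the number of such genes was 0 without WT 1 and 1 without Het 1. Calr3, which is also in the chaperone list, had 917, 149 and 182 in WT and 25.5, 156 and 47.6 in Het. Its genotypes overlapped, and WT 1 was far above the other animals. Rsph1, a radial spoke head protein that this list holds, had 8716, 7910.4 and 7942 in WT and 3893, 7153 and 4639 in Het, and all Het animals were lower. Odf2, an outer dense fibre scaffold, had 3004, 5464 and 6374 in WT and 1197, 5096 and 2349 in Het, and Akap4, the main fibrous sheath protein, had 45.8, 2573 and 2174 in WT and 70.9, 2209.7 and 106 in Het. In Akap4 WT 1 was as low as Het 1 and Het 3. The list's median was -0.21 without Het 1 and -0.12 without WT 1 and Het 1.

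Axonemal genes had a median of -0.18 (-0.03 by library scaling, -0.04 without Het 1) with 25 of 37 lower (21 without Het 1), and the tektins Tekt1 and Tekt2 and the dynein heavy chain Dnah17 had an unadjusted p under 0.05, a count that was 0 without WT 1 and 0 without Het 1. Tekt1 had 2365, 1899 and 1387 in WT and 761, 1396 and 1077 in Het, with WT 3 just inside the Het range. Manchette and intraflagellar transport genes had a median of -0.15 (0.00 by library scaling, -0.08 without Het 1) with 23 of 37 lower, among them Ift22 (834, 523 and 434 in WT, 76.5, 399 and 76.2 in Het). Acrosome genes had a median of -0.10 with 18 of 32 lower, beside 0.007 for all genes. By library scaling it was 0.05, beside 0.157 for all genes, so the list lay below all genes under both. The median was -0.01 without WT 1 and 0.01 without Het 1, with 16 lower and 16 higher in the latter case. Csnk2a2, a catalytic subunit of casein kinase 2 needed for normal sperm heads, had 167, 239 and 313 in WT and 76.5, 35.4 and 57.1 in Het (unadjusted p = 0.00132, adjusted p = 0.779), with no overlap. Vps54, a tethering factor of vesicles bound for the Golgi, had 21, 45.3 and 29.9 in WT and 63.3, 52.1 and 54.0 in Het.

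Spermatocyte genes had a median of 0.06 (0.11 without WT 1) with 18 of 25 higher and 0 under the unadjusted p. Spermatogonia markers had a median of 0.03 (0.24 without WT 1, 0.25 without Het 1), with 7 of 11 higher. Among them Kit, the receptor of differentiating spermatogonia, had 14.9, 20.3 and 29.9 in WT and 45.4, 41.0 and 37.0 in Het. Kit was the only marker of this list with an unadjusted limma p under 0.05 (0.028). Of the 4 lower markers, Stra8 and Sohlh1 had log2 fold changes of -0.96 and -0.42. Round spermatid genes had a median of -0.23, which was -0.01 without WT 1, -0.12 without Het 1 and -0.08 by library scaling.

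Of the cells outside the germ line, Leydig cell markers had a median of 0.00 (0.15 by library scaling, -0.13 without WT 1, 0.13 without Het 1), with 6 of 12 higher. All 8 markers of peritubular myoid and endothelial cells tested were higher in Het, with a median of 0.43, and 0 had an unadjusted p under 0.05. Their summed level was 865, 552 and 399 in WT and 1243, 655 and 661 in Het, with Het 1 highest, and without Het 1 the median was 0.01. Macrophage and erythrocyte markers had medians of 0.02 and 0.11, which without WT 1 were -0.13 and 0.05, and without Het 1 were 0.00 and 0.12. C1qa, a complement gene of macrophages, had 57.0, 61.7 and 29.0 in WT and 0, 59.6 and 31.7 in Het. Of the epididymis markers only Rnase10 passed the filter, with a summed level for the whole list of 1.24, 40.5 and 44.4 in WT and 37.8, 32.6 and 31.7 in Het.

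**Figure D3:**
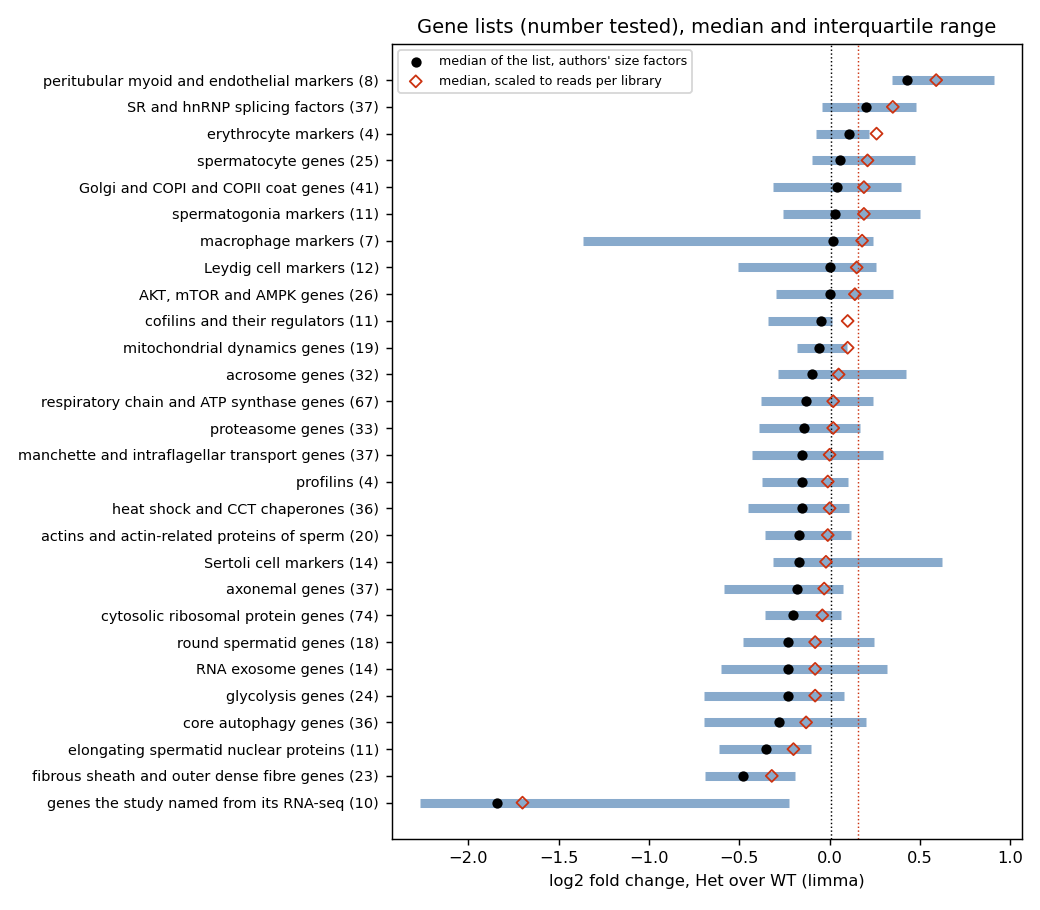
Log2 fold change of Het over WT (horizontal axis) by gene list, with the number of genes tested. Points show medians and bars the interquartile range with the authors' size factors, diamonds show medians scaled to reads per library, and dotted lines mark the median of all genes under each scaling. The fibrous sheath list (-0.48) and the study's own genes (-1.84), which were chosen on these samples, lie lowest.

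Genes of vesicle traffic and autophagy, processes in which the study placed PFN3, were also listed. Core autophagy genes had a median of -0.28 (-0.13 by library scaling, -0.14 without WT 1, -0.10 without WT 1 and Het 1), with 21 of 36 lower and 0 with an unadjusted p under 0.05. Atg7, an enzyme that starts the conjugation of LC3-type proteins, had 244, 178 and 185 in WT and 77.5, 174 and 119 in Het. Pik3r4, a regulatory subunit of the class III PI3-kinase complex, had 99, 91.6 and 109 in WT and 8.50, 98.7 and 0 in Het, again with Het 2 at the WT level. Among the 15 autophagy genes that were higher in Het, Epg5 and Tmem41b had log2 fold changes of 1.61 and 0.93. Atg2a, which the study named, had 11.1, 133 and 259.7 in WT and 3.78, 156 and 9.52 in Het, with overlap. Golgi and coat genes had a median of 0.04 (0.19 by library scaling, 0.00 without WT 1), with 22 of 41 higher. Copb1, a COPI coat subunit, had 81.7, 103 and 98.5 in WT and 139, 144 and 145 in Het. Sec24b, a COPII cargo adaptor, had 55.7, 158 and 215 in WT and 379.8, 249 and 330.2 in Het. In both the Het animals were higher without overlap, with an unadjusted limma p of 0.0221 for Copb1 and 0.0415 for Sec24b. Genes at an unadjusted p under 0.05 were 4.88% of the list, near the 3.34% of all genes tested. Het animals lay wholly above WT animals in 3 of the Golgi and coat genes and wholly below in 3. Copa, the COPI subunit the study named, had 214, 365 and 448 in WT and 20.8, 401 and 27.5 in Het. AKT, mTOR and AMPK genes had a median of 0.00 (0.14 by library scaling, 0.05 without Het 1), with 13 of 26 higher.

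Cytosolic ribosomal protein genes had a median of -0.20 (-0.04 by library scaling) with 53 of 74 lower and a median of -0.25 without WT 1 and Het 1. Of the 74, 3 (Rpl35, Rplp2 and Rpsa) had an unadjusted p under 0.05, which is 4.05%, near the 3.34% of all genes tested. Proteasome genes had a median of -0.14 (0.02 by library scaling, -0.22 without Het 1) with 21 of 33 lower. Psmd8, a lid subunit, had 2178, 2480.2 and 2076 in WT and 1439.9, 1544 and 1460.4 in Het, with no overlap and an unadjusted p of 0.0058. Chaperone genes had a median of -0.15 (0.00 by library scaling) with 24 of 36 lower, and glycolysis genes a median of -0.23 (-0.08 by library scaling, -0.05 without Het 1) with 16 of 24 lower. Among glycolysis genes only Pgam2 had an unadjusted p under 0.05, and 0 did without Het 1. Pgam2, the testis and muscle phosphoglycerate mutase, had 5710.1, 4013 and 3449.9 in WT and 1824, 3343 and 2289 in Het. Respiratory chain genes had a median of -0.13 (0.02 by library scaling). Splicing factors of the SR and hnRNP families went the other way, with a median of 0.20 and 27 of 37 higher, but the median was 0.07 without WT 1, 0.13 without Het 1 and -0.01 without both, and the 2 with an unadjusted p under 0.05, Hnrnpr and Srsf11, were lower in Het. Hnrnpr had 163, 127 and 128 in WT and 53.9, 66.1 and 34.9 in Het, with no overlap.

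The sign of the difference followed the abundance of the gene. The median log2 fold change was 0.13 for genes with a mean normalized count under 30, -0.03 from 100 to 300, -0.20 from 1000 to 3000 and -0.24 over 3000. Of the 121 genes over 3000, 73.6% were lower in Het, and Het animals lay wholly below WT animals in 22.3% and wholly above in 0.826%, beside 6.49% and 6.76% over all genes. Under library scaling the medians of the lowest and highest class were 0.26 and -0.09, so the sign of the highest class stayed. Without WT 1 they were 0.07 and -0.13, and without WT 1 and Het 1 0.07 and -0.11. The highest class includes Prm2, Tnp2, Tssk6 and Rsph1. The summed level of the class was 1189570, 1028022 and 968780 in WT and 864806, 915198 and 907621 in Het.

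**Figure D4:**
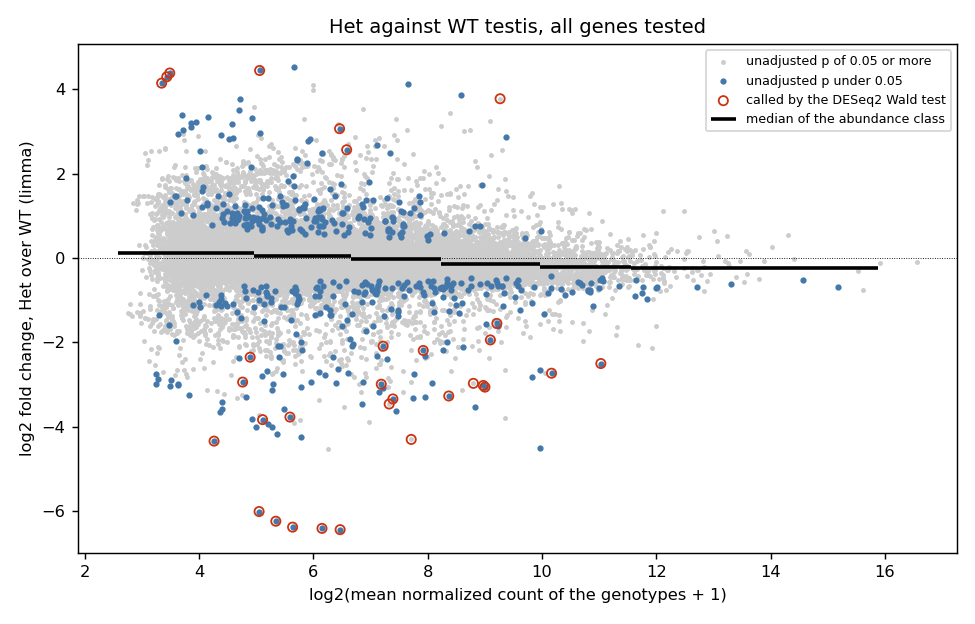
Log2 fold change of Het over WT (vertical axis) against the mean normalized count on a log2 scale (horizontal axis) for the 14216 genes. Blue points have an unadjusted limma p under 0.05, red rings mark the 31 genes called by DESeq2, and black lines give the median of each abundance class, which goes from 0.13 to -0.24.

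Genes close to the edited locus were examined because the stretch of chromosome around an edit is inherited with it. Within 1 Mb of Pfn3 the table holds 63 genes, of which 31 passed the filter. Their median log2 fold change was -0.04, with 17 lower and 14 higher, and 0 had an unadjusted p under 0.05. The values ran from -1.72 for Pcbd2 to 0.76 for 4833439L19Rik. Pcbd2 had 37.1, 44.4 and 37.7 in WT and 0, 38.2 and 46.6 in Het, so that Het 1 alone was low. Ddx46, an RNA helicase of the spliceosome, had 1079.6, 882 and 1046 in WT and 373, 974 and 394 in Het (log2 fold change -0.93, unadjusted p = 0.0559). Catsper3, a subunit of the sperm calcium channel, had 378, 297 and 250.1 in WT and 163, 241 and 228 in Het. Its genotypes did not overlap, which held for 1 of the 31, a smaller share than the 6.49% lower and 6.76% higher of all genes tested. The nearest genes tested, Grk6 on one side and Lman2 on the other, had log2 fold changes of -0.18 and 0.28.

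**Figure D5:**
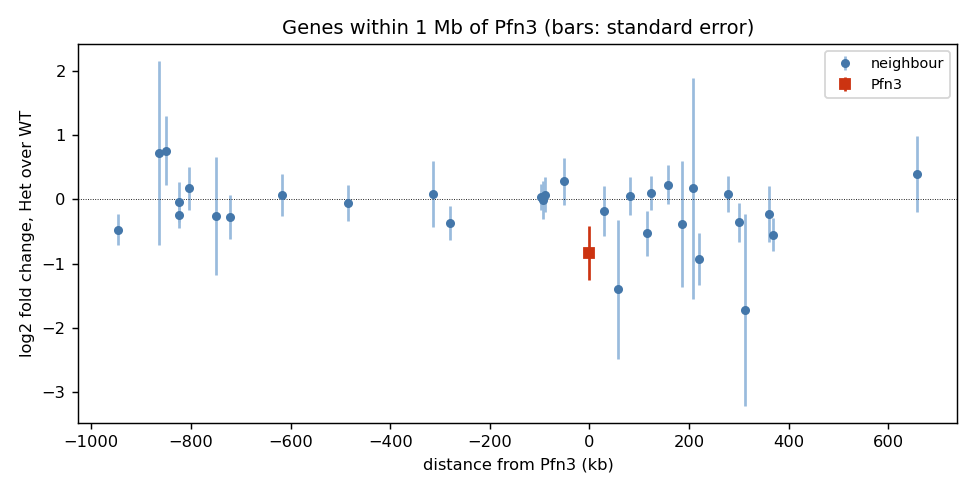
Log2 fold change of Het over WT with its standard error (vertical axis) for the 31 genes tested within 1 Mb of Pfn3, by distance from Pfn3 in kb (horizontal axis). Pfn3 is at -0.83, and the median of its neighbours is -0.04.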

How the data were processed

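RNA was measured in 9 testis samples, 6 of which are compared here. According to the submitters' processing notes and the study's methods, reads were trimmed with Trim Galore 0.4.5, aligned to GRCm38 with HISAT2 2.1 and assembled and counted with StringTie 1.3.3, and pseudogenes were removed. The deposited signal values are counts that the authors divided by 1 size factor per sample. All nonzero values (100%) are whole multiples of 1 read within 0.01, which gave the reads back. On these reads edgeR 4.0.16 called 0 genes and DESeq2 1.42.0 called 31. The table has 0 columns of other samples.

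The test was limma 3.58.1 (trend) in R 4.3.3 on log2(value + 1) over genes with at least 10 in 3 of the 6 samples, Benjamini-Hochberg adjusted over all 14216 genes, with the study's cutoffs of 0.05 and 1.5. Functions were tested on simulated data. Of the genes, 38509 of 38674 matched GENCODE M21 by Ensembl ID. Members and lists were chosen with earlier results of these data known. Named genes were Pfn3, other profilins, the study's genes, genes past the cutoffs by any tool (up to 6 a direction), up to 10 non-overlapping genes a direction by size of change, and up to 4 a list. Intervals and floors cover counting error only. Alternatives were other tests, filters, pseudocounts, scalings, all 9 samples, a replicate block and leaving out animals. Some listed genes are not analysed here.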

Additional observations from a re-analysis of the deposited data

How the results depend on the processing

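With 3 animals a genotype and values under about 3 reads per library not told from 0, the limits lie in calls and in low genes. The limma count of 0 became 3 without a filter, 1 with at least 10 in all 6 or at least 50 in 3 animals, 2 with a pseudocount of 5, 1 with TMM factors, 3 with all 9 samples, 31 with DESeq2, 14 with its normal prior and, chosen after seeing the data, 32 with DESeq2 on all genes with a read. It was 475 at an unadjusted p under 0.05, and 0 to 3 when 1 animal was left out, the 3 being without Het 2. Leaving out WT 1 and Het 1 together was also chosen after seeing the data.

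Deviations of log2 values from the genotype mean correlated at 0.175, 0.205 and -0.029 between WT and Het samples with the same number. Between samples with different numbers they correlated at -0.254 to 0.195. With 3 animals a genotype these values cannot decide whether the numbers pair the animals. The replicate block gave 0 calls with 322 genes at an unadjusted p under 0.05. Of 622 values of named genes under alternatives that keep every animal, 596 kept direction and side of the threshold, 25 passed it and 1 reversed, Pfn4 at 0.07 by library scaling. Pfn2 was at -0.08 without WT 1 and Het 1. Of 387 values that leave out 1 animal, 8 reversed. The log2 fold change then ranged from -0.04 to 0.70 for Cfl1, -2.81 to 0.44 for Srsf9, -0.51 to 2.08 for Sap30, -1.55 to 1.06 for Pfn1, -0.01 to 1.0 for Pfn2 and -0.40 to 0.15 for Pfn4.

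By library scaling the median was -0.08 for round spermatid genes, 0.10 for cofilins, 0.14 for AKT, mTOR and AMPK genes and 0.19 for Golgi genes. The median of all genes rose from 0.007 to 0.157 with that scaling, and these lists rose with it. Without WT 1 and Het 1 the median of round spermatid genes was -0.03. The study's genes had -1.11 with edgeR and -1.13 with DESeq2. Leaving out 1 animal, medians ranged from -0.49 to -0.16 (elongating spermatid), -0.31 to -0.01 (round spermatid), -0.11 to 0.39 (spermatogonia), -0.21 to 0.04 (cofilins), -0.25 to -0.02 (core autophagy, -0.28 with every animal), -0.34 to -0.13 (proteasome) and -2.67 to -1.24 (the study's genes).

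Genes with 1 animal apart numbered 566 among WT and 348 among Het at 3 log2 units, 2018 and 1137 at 1 unit, 410 and 235 with at least 50 in 3 animals and 571 and 312 with a pseudocount of 5. With a gap of at least 1 log2 unit, 13 genes were wholly higher and 20 wholly lower in Het, and 485 were wholly higher with at least 50 in 3 animals. Within 2 Mb of Pfn3, 1 gene had an unadjusted p under 0.05. The cause of these shifts in counts was not tested.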
